A study of Sus scrofa with 12 samples.

Results

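Ubiquitin E3 ligases of the TRIM, RNF, F-box and KLHL families were described in pig peripheral blood mononuclear cells (PBMC) exposed to Salmonella with or without a miR-124 sponge. The members were all gene symbols of the deposited table that begin with TRIM, RNF, FBXO, FBXL, FBXW or KLHL followed by a digit, and the rule used no measured value. It found 117 of 7480 genes, 30 TRIM, 36 RNF, 28 F-box (19 FBXO, 6 FBXL and 3 FBXW) and 23 KLHL genes. The families are grouped by name, and not every member has a shown ligase activity.

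An E3 ligase picks the protein to which ubiquitin is attached, and so sets which proteins are degraded, relocated or switched on. Most TRIM and RNF proteins carry their own RING domain, which brings the ubiquitin-loaded E2 enzyme to the substrate. F-box and KLHL proteins are substrate receptors that plug into cullin scaffolds, F-box proteins into cullin 1 through SKP1 and KLHL proteins into cullin 3 through a BTB domain. In blood cells several TRIM proteins are induced by interferon and act in antiviral defence, and RNF and F-box proteins tune receptor, NF-kB and T cell signalling.

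The 12 libraries fell into 3 groups of 4, labelled as PBMC treated with a miR-124 sponge and Salmonella, PBMC treated with Salmonella, and non-treated control PBMC. A sponge is a synthetic oligonucleotide that captures a microRNA, here miR-124. The titles and columns of the first group name miR-124 and Salmonella without the word sponge, which is given in its description, so miR-124 itself as the agent cannot be told apart from the labels alone. The labels of the single samples name the bacterium as Salmonella, and the design text of the series names it as Salmonella Typhi. All groups came from crossbred Duroc x Landrace x Yorkshire piglets aged 4 weeks, 20 in the design with 10 of each sex, and the design places collection at 12 h after treatment. The labels do not say which piglet or sex a library came from, whether animals were pooled, or whether cells were treated inside or outside the animal. The p-values therefore measure only the spread between these libraries, which may be technical.

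The deposited values were on a log scale, taken here as log2, and ran from 2.13 to 15.01 over the table, with library medians between 5.11 and 5.31. Read depth is unknown. Exact ties between genes made up 65.1% to 71.4% of a library's values when the sponge was present, but no more than 0.0267% in Salmonella and 0.0802% in control libraries. Among the members alone these ties reached 61.5% to 72.6% in the sponge plus Salmonella columns, so the treatment and the kind of column cannot be told apart. Salmonella replicate 1 stood nearest to the sponge plus Salmonella libraries, with a mean correlation across genes of 0.953 with them, against 0.915 to 0.938 for the other 3 Salmonella libraries. Its mean correlation with its own group was 0.962, against 0.970 to 0.978 for the others. Without it, 22 members were called higher and 18 lower in Salmonella against control, and 13 higher and 19 lower in sponge plus Salmonella against Salmonella. The differences of FBXO38 and FBXO30 in Salmonella against control are given below with and without it. Those of FBXO38, FBXO30 and FBXL5 in sponge plus Salmonella against Salmonella are given only with it.

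Silent genes set the floor for reading these levels. Genes with no known role in blood cells, 183 in all (olfactory and taste receptors, keratin-associated proteins, PRAMEF genes and beta-defensins), averaged 4.62 log2 units, with a 95th percentile of 4.97. Only 53 of the 183 are named in the pig gene tables used here, against 114 of the 117 members. TRIM5, TRIM43 and FBXW10 were the 3 members absent from these tables, and a symbol absent there may be a human name for a pig sequence under another name. The mean of every group lay at or below 4.97 for 28 members (23.9%), against 33.9% of all 7480 genes. It lay above 4.97 in all 3 groups for 63 members. Below this level the size of a fold is uncertain. Whether the values were scaled for gene length is not given in the sources used here, so levels are not compared between genes.

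**Figure D1:**
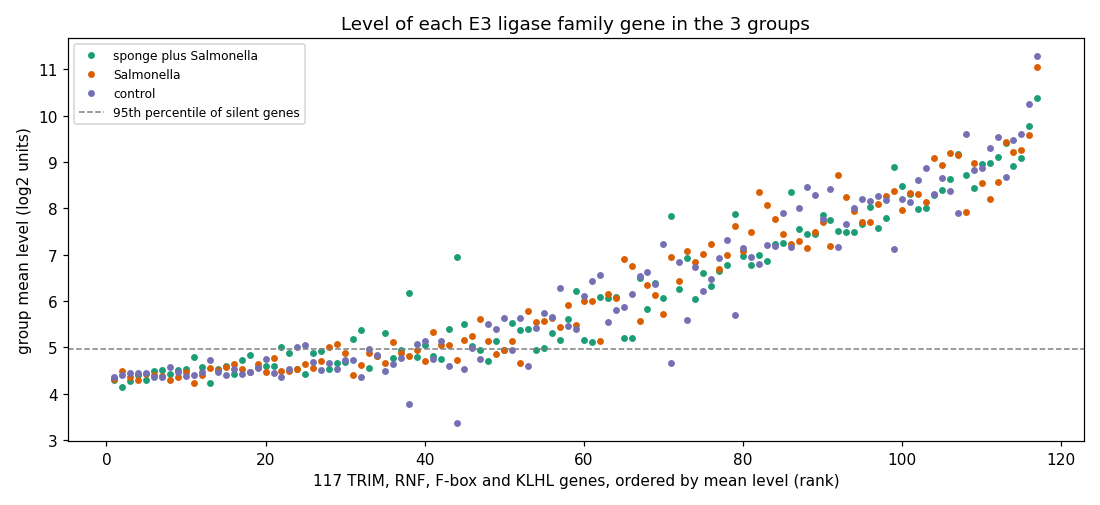
Mean level of each of the 117 members in sponge plus Salmonella, Salmonella and control libraries (log2 units, n = 4 each), with the members ordered by their mean over the 12 libraries for display only. The dashed line is the 95th percentile of 183 silent genes (4.97), and FBXO38 and FBXO30 are the members whose control mean lies farthest below it.

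The first comparison asks which members respond to Salmonella. KLHL2 and TRIM56 rose most, RNF19B, TRIM5, RNF138, RNF145 and RNF20 rose by between 1.25 and 1.57 log2 units, and KLHL22, FBXO42, FBXL13 and RNF125 fell most. In all, 22 members were higher and 19 lower in Salmonella than in control libraries by limma at an adjusted p below 0.05. These were 18.8% and 16.2% of the members, against 15.7% and 17.9% of all genes tested. The share called either way was 35.0%, against 33.6% of all genes. Among genes with a mean above 4.97 in at least 1 of the 2 groups, which favours genes that differ, it was 43.4% of 83 members, against 47.2% of all such genes. At an unadjusted p below 0.05 there were 53 members (45.3%), against 44.0% of all genes. The median log2 difference of the members was -0.01, against -0.02 for all genes. The 2 groups did not overlap for 50 members (42.7%), against 35.6% of all genes. Among the calls, 11 members rose and 6 fell by 1 log2 unit or more, 9.40% and 5.13% against 8.02% and 6.46% of all genes.

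Immune cell markers moved with the same groups. The summed level of 12 T cell markers was 12.07 to 12.44 log2 units in Salmonella and 13.53 to 14.15 in control libraries, and that of 5 NK cell markers 12.29 to 13.48 and 14.12 to 14.86. For these lists 11 of 12 and 5 of 5 markers were lower with Salmonella. The summed level of 8 monocyte markers was 14.43 to 14.76 in Salmonella and 13.80 to 14.02 in control libraries, with 6 of 8 higher. FCN1, which was not called, was the largest term of that sum (means 13.90 and 13.51). The basophil and eosinophil markers, 5 of 5 lower, summed to 8.79 to 9.08 in Salmonella and 11.30 to 12.03 in control libraries. The platelet markers, 5 of 6 higher, summed to 12.62 to 13.74 in Salmonella and 11.99 to 12.33 in control libraries. FCER1A (means 8.56 and 11.58) was the largest term of the basophil and eosinophil sum, and PPBP (12.51 and 11.38) of the platelet sum. Of the B cell markers, CD79A (-2.78 ± 0.20, adjusted p = 5.94e-07) and CXCR5 (-2.47 ± 0.24, adjusted p = 4.65e-06) were lower with Salmonella. The sum of 8 neutrophil markers overlapped, at 13.85 to 14.04 in Salmonella and 13.77 to 13.97 in control libraries. This sum is close to the level of S100A9 alone (means 13.70 and 13.71) and says little about the others. Of the 8, S100A12 (3.37) and MPO (1.08) were higher, RETN (-1.54) was lower and 5 were not called. CD3E and CD8A of T cells and VCAN and LYZ of monocytes were among the markers measured, and the pan-leukocyte marker PTPRC was not in the table. The part of these shifts in the results on the ligases was not tested, and in such bulk samples fewer cells of a type and less RNA per cell cannot be told apart.

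**Figure D2:**
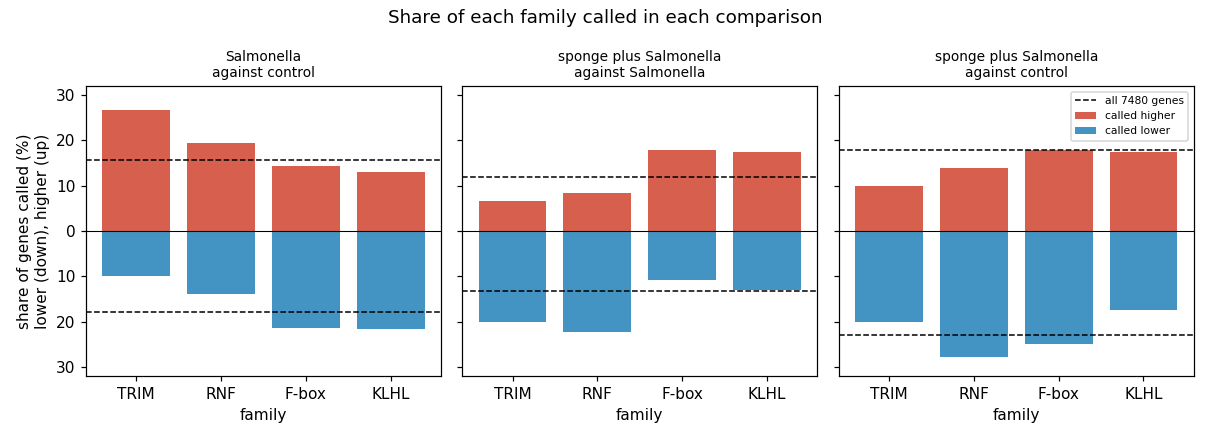
Share of the 30 TRIM, 36 RNF, 28 F-box and 23 KLHL genes called higher (upward bars) or lower (downward bars) in each comparison, in percent. Dashed lines give the share of all 7480 genes called in that direction, for example 15.7% higher and 17.9% lower in Salmonella against control.

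Of the TRIM genes, 8 of 30 were higher and 3 lower with Salmonella, 26.7% and 10% against 15.7% and 17.9% of all genes. Of 9 TRIM genes listed for antiviral or innate roles, 4 were measured, namely TRIM5, TRIM34, TRIM38 and TRIM56. TRIM56 encodes an interferon-induced ligase of antiviral and DNA-sensing pathways in human cells. It stood at 8.17, 7.62, 7.41 and 7.28 log2 units in Salmonella libraries, against 5.32, 5.96, 5.97 and 5.57 in control libraries. All 4 Salmonella libraries lay above all controls, and TRIM56 rose by 1.92 ± 0.24 (log2 difference ± SE, n = 4 each; adjusted p = 3.77e-05; chromosome 3, 8834260 to 8842524 in Sscrofa11.1).

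TRIM5, whose protein blocks retroviral capsids in primates, stood at 7.61, 8.50, 8.59 and 8.71 in Salmonella libraries, against 6.80, 6.73, 6.45 and 7.17 in control libraries. It rose by 1.57 ± 0.27 (adjusted p = 0.00046), and Salmonella replicate 1 was the lowest of its group. In human the TRIM5 gene lies in a cluster of close relatives that includes TRIM34, so reads could be split between them and the values are uncertain. TRIM34 itself stayed near the silent genes, with group means of 4.39 in Salmonella and 4.35 in control libraries. TRIM38, a restraint on Toll-like receptor signalling in human and mouse cells, stood at 9.36, 8.83, 9.11 and 9.47 in Salmonella libraries, against 8.24, 8.54, 8.14 and 8.58 in control libraries. It rose by 0.81 ± 0.18 (adjusted p = 0.00347) with no overlap.

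TRIM7, which binds glycogenin, stood at 6.71, 7.05, 7.33 and 6.54 in Salmonella libraries, against 5.77, 5.71, 6.05 and 5.95 in control libraries, a rise of 1.04 ± 0.24 (adjusted p = 0.00454). TRIM27, a RING protein that works with the retromer coat on endosomes in human cells, rose by 0.80 ± 0.23 (adjusted p = 0.0134). TRIM9, best known from neurons, rose by 0.77 ± 0.22 (adjusted p = 0.0152). TRIM24, a bromodomain co-regulator of nuclear receptors, rose by 0.61 ± 0.20 (adjusted p = 0.0257), but its control mean was 4.54. The call of TRIM24 ended when control replicate 1 or 3, or Salmonella replicate 1 or 3, was left out (adjusted p 0.0585 to 0.0824). TRIM42, named after its values were seen, was also called (0.31 ± 0.10, adjusted p = 0.0332) but lay below 4.97 in both groups, and its call ended without any 1 of 5 libraries (adjusted p up to 0.0916).

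TRIM8, which acts in cytokine and SOCS1 signalling, moved the other way. It stood at 9.26, 9.75, 9.52 and 9.82 in Salmonella libraries, against 10.44, 10.22, 9.89 and 10.44 in control libraries, a fall of 0.66 ± 0.16 without overlap (log2 difference -0.66, adjusted p = 0.0065). TRIM68, a ligase that binds the androgen receptor in human cells, fell by 0.80 ± 0.23 (log2 difference -0.80, adjusted p = 0.0144). TRIM29 also fell (-0.46 ± 0.12, adjusted p = 0.00696). It is outside the naming rule, was named after its values were seen, and its Salmonella mean of 4.54 was in the silent range.

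Of the RNF genes, 7 of 36 were higher and 5 lower with Salmonella, 19.4% and 13.9% against 15.7% and 17.9% of all genes. RNF19B, also called NKLAM, is a membrane-bound ligase of NK cells and macrophages. It stood at 8.53, 8.74, 8.47 and 9.16 in Salmonella libraries, against 6.93, 7.37, 6.96 and 7.36 in control libraries, and so lay apart in every library. RNF19B rose by 1.57 ± 0.24 (adjusted p = 0.000214; chromosome 6, 89220156 to 89250358). In the same libraries the 5 NK cell markers were all lower and 6 of 8 monocyte markers were higher. Their part in this rise was not tested.

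RNF145, an endoplasmic reticulum ligase of the cholesterol pathway, stood at 8.72, 7.97, 8.61 and 8.22 in Salmonella libraries, against 6.66, 7.42, 7.58 and 6.79 in control libraries. It rose by 1.27 ± 0.23 (adjusted p = 0.000709). RNF20, which ubiquitinates histone H2B together with RNF40, stood at 9.23, 9.28, 9.28 and 8.82 in Salmonella libraries, against 7.31, 8.24, 8.34 and 7.74 in control libraries, a rise of 1.25 ± 0.22 (adjusted p = 0.000617). Both genes were higher in every Salmonella library than in any control. RNF138, a ligase of DNA end processing and Wnt signalling, rose by 1.49 ± 0.35 (adjusted p = 0.00418), and its control libraries spread from 4.48 to 6.29, the widest spread of any member among controls (SD 0.81). RNF180 rose by 1.19 ± 0.25 (adjusted p = 0.00204) with a control mean of 4.59. RNF144B and RNF152, named after their values were seen, completed the risers. RNF144B rose by 0.79 ± 0.26 (adjusted p = 0.0292), and its call ended when control replicate 1 or 3, or Salmonella replicate 2, 3 or 4, was left out (adjusted p 0.0521 to 0.0926). RNF152 rose by 0.60 ± 0.17 (adjusted p = 0.0138), with a control mean of 4.74.

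RNF125, which targets the RNA sensor RIG-I and is expressed in T cells, stood at 7.18, 7.36, 6.96 and 7.09 in Salmonella libraries, against 8.31, 8.53, 8.64 and 8.34 in control libraries. It fell in every library (-1.31 ± 0.21, adjusted p = 0.00034). RNF144A, an RBR ligase known to target DNA-PKcs in human cells, differed by -1.24 ± 0.24 (adjusted p = 0.00111). RNF216, also called TRIAD3, which targets Toll-like receptors and RIPK1, stood at 8.44, 8.16, 8.11 and 8.08 in Salmonella libraries, against 9.24, 9.50, 9.27 and 9.22 in control libraries (-1.11 ± 0.21, adjusted p = 0.000989). These 3 falls came without overlap between the groups. Markers of several cell types, not of T cells alone, were lower in the same libraries, and their part in these falls was not tested. The other 2 falls, RNF186 and RNF183, were small (-0.70 and -0.27) with Salmonella means of 4.94 and 4.47, and both were named after their values were seen. The call of RNF183 ended when control replicate 1, Salmonella replicate 3 or Salmonella replicate 4 was left out (adjusted p between 0.0586 and 0.0612).

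Of 9 RNF genes listed for genome and chromatin roles 5 were measured, and RNF20 was the only one of them called. RNF8, the ligase that marks histones at DNA breaks, had a difference of 0.60 ± 0.23 (adjusted p = 0.0539), with no overlap between the groups. RNF168, which extends that mark, was in the silent range in both groups, and RNF2, the catalytic RING of Polycomb complex 1, had means of 4.62 in Salmonella and 4.36 in control libraries (0.26 ± 0.18, adjusted p = 0.277). Of 13 RNF genes listed as membrane ligases 5 were measured and RNF19B and RNF145 were called. RNF13, a ligase of endosomes and lysosomes, had a difference of 0.61 ± 0.32 (adjusted p = 0.16).

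Of the F-box genes, 4 of 28 were higher and 6 lower with Salmonella, 14.3% and 21.4% against 15.7% and 17.9% of all genes. FBXO38, whose protein drives degradation of the T cell checkpoint receptor PD-1 in human and mouse cells, stood at 6.29, 4.52, 4.50 and 3.60 in Salmonella libraries, against 3.32, 3.4, 3.58 and 3.20 in control libraries. The controls lay well below the silent genes and Salmonella replicate 1 was far above the rest of its group. The difference was 1.35 ± 0.39 (adjusted p = 0.0155), and 0.83 without Salmonella replicate 1 (adjusted p = 0.0106). FBXO30, named after its values were seen, had the same shape at 6.11, 4.70, 4.54 and 3.89 in Salmonella libraries, against 3.83, 3.71, 3.84 and 3.71 in control libraries. Its difference was 1.04 ± 0.35 (adjusted p = 0.0322), and 0.60 without Salmonella replicate 1 (adjusted p = 0.0583). That call also ended without Salmonella replicate 2 or any 1 of the controls (adjusted p up to 0.0692). FBXO38 and FBXO30 had the widest spread of all members within the Salmonella group (SD 1.13 and 0.93).

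FBXL5, the iron sensor that directs degradation of iron regulatory protein IRP2, stood at 7.23, 8.21, 8.38 and 8.44 in Salmonella libraries, against 7.41, 7.17, 6.88 and 7.39 in control libraries. Salmonella replicate 1 lay among the controls and the other 3 above them. The rise was 0.85 ± 0.27 (adjusted p = 0.0254), and its call ended when control replicate 2 or 3, or Salmonella replicate 2, 3 or 4, was left out (adjusted p 0.0537 to 0.0765). FBXO43, an inhibitor of the anaphase-promoting complex, rose by 0.84 ± 0.20 (adjusted p = 0.00434) with a control mean of 4.76.

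FBXO42, which binds p53 in human cells, stood at 6.41, 5.49, 5.08 and 5.88 in Salmonella libraries, against 7.56, 6.57, 7.54 and 7.23 in control libraries (-1.51 ± 0.33, adjusted p = 0.00283). FBXL13 differed by -1.42 ± 0.28 (adjusted p = 0.00143). FBXO21 stood at 8.73, 8.70, 8.52 and 8.32 in Salmonella libraries, against 9.56, 9.48, 9.82 and 9.31 in control libraries (-0.98 ± 0.16, adjusted p = 0.000313). FBXW8, a partner of cullin 7, also fell (-0.98 ± 0.26, adjusted p = 0.00942), with a Salmonella mean of 4.66. FBXL17, which clears wrongly paired BTB proteins, fell too (-0.83 ± 0.24, adjusted p = 0.0152), as did FBXO31 (-0.71 ± 0.19, adjusted p = 0.00907), named after its values were seen. The F-box genes listed by role that were not called were FBXO32, also called atrogin-1 (0.10 ± 0.24, adjusted p = 0.797), and FBXW11, also called beta-TrCP2, a receptor for the NF-kB inhibitor IkB (-0.41 ± 0.23, adjusted p = 0.184). The 95% interval for FBXW11 was -0.89 to 0.08.

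Of the KLHL genes, 3 of 23 were higher and 5 lower with Salmonella, 13.04% and 21.74% against 15.7% and 17.9% of all genes. KLHL2, an actin-binding receptor that with cullin 3 degrades WNK kinases, had the largest difference of any member. It stood at 7.57, 6.78, 7.24 and 6.16 in Salmonella libraries, against 4.0, 4.87, 5.40 and 4.41 in control libraries. The rise was 2.27 ± 0.34 (adjusted p = 0.000181; chromosome 8, 43749423 to 43871011), and its size is uncertain because 3 of the 4 controls were below 4.97. KLHL38 and KLHL17 rose by 0.53 ± 0.18 and 0.48 ± 0.15 but had control means below the silent 95th percentile, and were named after their values were seen. The call of KLHL38 (adjusted p = 0.0391) ended without any 1 control or without Salmonella replicates 3 or 4. The call of KLHL17 (adjusted p = 0.0241) ended when control replicate 1 or 4, or Salmonella replicate 2 or 3, was left out.

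KLHL22, a cullin 3 receptor for PLK1 and for the mTORC1 regulator DEPDC5 in human cells, had the deepest fall of any member and the smallest adjusted p. It stood at 8.07, 7.97, 7.97 and 7.65 in Salmonella libraries, against 9.65, 9.72, 9.64 and 9.40 in control libraries (-1.69 ± 0.16, adjusted p = 3.19e-06; chromosome 14, 50773917 to 50809991). Every control library lay more than 1 log2 unit above every Salmonella library. KLHL29 (-0.96 ± 0.27, adjusted p = 0.0125) and KLHL36 (-0.73 ± 0.20, adjusted p = 0.0105) fell too. KLHL33 and KLHL30, named after their values were seen, fell by less, with Salmonella means of 4.65 and 4.29. The fall of KLHL33 (log2 difference -0.40, adjusted p = 0.0339) shrank to -0.24 without control replicate 3 (adjusted p = 0.0674) and its call also ended without Salmonella replicates 1 or 3. KLHL6, a receptor of B cells and germinal centres, had a difference of 0.59 ± 0.24 (adjusted p = 0.0772). KLHL12, which enlarges COPII transport vesicles, was close in both groups (-0.06 ± 0.17, 95% interval -0.43 to 0.31).

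**Figure D3:**
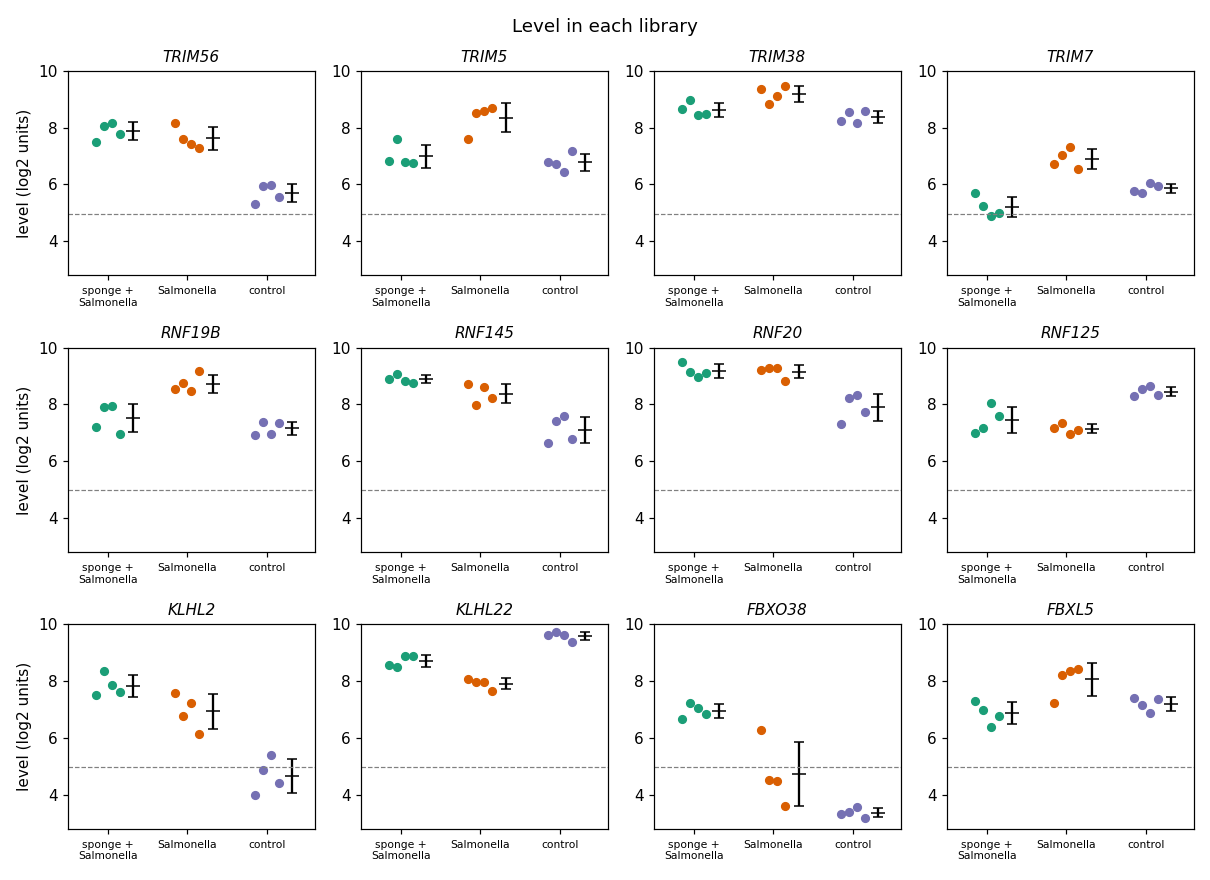
Level of 12 members in each library (log2 units), with sponge plus Salmonella, Salmonella and control libraries from left to right, replicates 1 to 4 in order, and the group mean ± SD (n = 4) as a bar beside them. The dashed line is the silent 95th percentile (4.97). With the sponge, TRIM56 and KLHL2 lie above every control library and TRIM5, TRIM7 and RNF19B below every Salmonella library, and Salmonella replicate 1 stands apart for FBXO38 (6.29).

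The second comparison asks how the members differ when the sponge is added to Salmonella. TRIM7, RNF13, TRIM5, RNF19B and FBXL5 were lower with the sponge by more than 1 log2 unit, and FBXO38, FBXO30 and KLHL28 were higher by more than 1. By limma 14 members were higher and 20 lower in sponge plus Salmonella than in Salmonella libraries at an adjusted p below 0.05. These were 12.0% and 17.1% of the members, against 11.9% and 13.2% of all genes, and 29.1% against 25.0% when both directions are joined. Among genes with a mean above 4.97 in at least 1 of the 2 groups, which favours genes that differ, the joined share was 37.6% of 85 members, against 32.1% of all such genes. At an unadjusted p below 0.05 there were 50 members (42.7%), against 38.7% of all genes. Calls of 1 log2 unit or more were made upward for 3 members and downward for 5, 2.56% and 4.27%, against 4.84% and 4.16% of all genes. The 2 groups did not overlap for 29 members (24.8%), against 23.8% of all genes. The median log2 difference of the members was -0.06, against -0.04 for all genes.

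The counts fell when single libraries were left out, which also lowers the power of the test. A lost call therefore does not by itself mean that the difference rested on that library. The call of FBXL20 (-0.72), for example, ended both at -0.73 without sponge plus Salmonella replicate 4 and at -0.59 without Salmonella replicate 2. Counts of all genes without the same library are not given here. The 20 lower members became 9, 8 or 11 without Salmonella replicates 2, 3 or 4, and 12 without sponge plus Salmonella replicates 1, 3 or 4. The 14 higher members became 9 without Salmonella replicate 2 and 7 without Salmonella replicate 4. Cell markers moved here too. The summed T cell marker level was 12.78 to 13.41 in sponge plus Salmonella and 12.07 to 12.44 in Salmonella libraries, and that of monocyte markers 13.70 to 14.39 and 14.43 to 14.76. By limma 10 of 12 T cell markers were higher with the sponge than with Salmonella alone, and 5 of 8 monocyte markers were lower. The B cell markers CD79A (2.03 ± 0.20, adjusted p = 3.19e-05) and CXCR5 (1.76 ± 0.24, adjusted p = 0.000315) and 3 of 5 basophil and eosinophil markers were higher, and 3 of 5 red cell markers were lower. Their part in the differences of the ligases was not tested. Both comparisons use the same Salmonella libraries, so the values of a gene in one are not independent of those in the other.

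TRIM7 stood at 5.69, 5.23, 4.90 and 5.0 in sponge plus Salmonella libraries, against 6.71, 7.05, 7.33 and 6.54 in Salmonella libraries. The difference was -1.70 ± 0.24 (adjusted p = 0.000406). TRIM5 stood at 6.81, 7.58, 6.79 and 6.76 in sponge plus Salmonella libraries, against 7.61, 8.50, 8.59 and 8.71 in Salmonella libraries (-1.37 ± 0.27, adjusted p = 0.00255). The margin for TRIM5 was narrow, since sponge plus Salmonella replicate 2 (7.58) came close to Salmonella replicate 1 (7.61). TRIM9 was lower by 0.91 ± 0.22 (log2 difference -0.91, adjusted p = 0.00928) without overlap. TRIM38 stood at 8.65, 8.96, 8.43 and 8.48 in sponge plus Salmonella libraries, against 9.36, 8.83, 9.11 and 9.47 in Salmonella libraries, with 1 library of each group out of order. Its difference of -0.56 ± 0.18 was called at an adjusted p of 0.0369, and the call ended without Salmonella replicates 1, 3 or 4 or sponge plus Salmonella replicates 1, 3 or 4 (adjusted p 0.0541 to 0.108).

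For TRIM56 no difference was called. It stood at 7.48, 8.07, 8.17 and 7.76 in sponge plus Salmonella libraries, against 8.17, 7.62, 7.41 and 7.28 in Salmonella libraries, and the groups overlapped. The difference was 0.25 ± 0.24 (adjusted p = 0.457), with a 95% interval of -0.26 to 0.77. The 95% intervals of TRIM7 and TRIM5 were -2.22 to -1.18 and -1.94 to -0.80, and the difference between genes was not tested. TRIM27 (-0.40 ± 0.23, adjusted p = 0.206) and TRIM8 (0.20 ± 0.16, adjusted p = 0.394) were not called. The other TRIM calls were TRIM33, a nuclear co-regulator that ubiquitinates SMAD4 in human cells (-0.54 ± 0.17, adjusted p = 0.0357), TRIM16 (-0.47 ± 0.14), TRIM43 (0.77 ± 0.21) and TRIM36 (0.65 ± 0.17), named after their values were seen. TRIM16 had a mean of 4.53 in sponge plus Salmonella libraries, and TRIM43 and TRIM36 had means of 4.40 and 4.67 in Salmonella libraries, all in the silent range. The call of TRIM33 ended without Salmonella replicates 2, 3 or 4 or sponge plus Salmonella replicates 2, 3 or 4, that of TRIM16 without Salmonella replicates 2 or 3 or sponge plus Salmonella replicates 1 or 4, and that of TRIM43 without Salmonella replicate 2 (adjusted p up to 0.0993).

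RNF19B stood at 7.20, 7.90, 7.95 and 6.97 in sponge plus Salmonella libraries, against 8.53, 8.74, 8.47 and 9.16 in Salmonella libraries (-1.22 ± 0.24, adjusted p = 0.00288). RNF13 stood at 5.67, 5.09, 4.87 and 5.14 in sponge plus Salmonella libraries, against 6.08, 6.98, 6.76 and 7.23 in Salmonella libraries (-1.57 ± 0.32, adjusted p = 0.00362). Both were lower in every sponge plus Salmonella library than in any Salmonella library. RNF7, the RING subunit of cullin 5 ligases, stood at 10.55, 10.33, 10.38 and 10.29 in sponge plus Salmonella libraries, against 10.95, 11.01, 10.98 and 11.27 in Salmonella libraries, a tight but steady fall (-0.67 ± 0.13, adjusted p = 0.00305). RNF121, a membrane ligase of the secretory pathway, was lower by 0.84 ± 0.24 (log2 difference -0.84, adjusted p = 0.0198), and its call ended without sponge plus Salmonella replicate 2 (adjusted p = 0.0538).

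RNF216 was higher with the sponge, at 8.50, 8.61, 9.33 and 9.47 in sponge plus Salmonella libraries, against 8.44, 8.16, 8.11 and 8.08 in Salmonella libraries (0.78 ± 0.21, adjusted p = 0.0148). RNF2 stood at 5.41, 5.62, 5.12 and 5.37 in sponge plus Salmonella libraries, against 4.56, 4.44, 5.13 and 4.36 in Salmonella libraries (0.76 ± 0.18, adjusted p = 0.00755), and 3 of the 4 Salmonella values were in the silent range. RNF103, a ligase of the endoplasmic reticulum, was higher by 0.50 ± 0.16 (adjusted p = 0.0291), a call that ended without Salmonella replicates 2, 3 or 4 or sponge plus Salmonella replicates 2 or 3 (adjusted p 0.0616 to 0.0767). For several members that rose with Salmonella no difference with the sponge was called. RNF20 stood at 9.51, 9.15, 8.96 and 9.10 in sponge plus Salmonella libraries, against 9.23, 9.28, 9.28 and 8.82 in Salmonella libraries, and the groups overlapped (0.03 ± 0.22, 95% interval -0.44 to 0.50). RNF145 stood at 8.89, 9.09, 8.81 and 8.75 in sponge plus Salmonella libraries, above every Salmonella library, but its difference of 0.51 ± 0.23 was not called (adjusted p = 0.115). RNF138 (-0.15 ± 0.35) was not called either, nor was RNF125 (0.31 ± 0.21), which had fallen with Salmonella. The lower calls of RNF25, RNF144B, RNF152 and RNF123, named here after their values were seen, had adjusted p-values of 0.0499, 0.0343, 0.034 and 0.0448. Each ended without at least 4 single libraries of the 8, with adjusted p-values up to 0.141 for RNF25, 0.102 for RNF144B, 0.0947 for RNF152 and 0.0994 for RNF123.

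FBXO38 stood at 6.68, 7.22, 7.07 and 6.83 in sponge plus Salmonella libraries, against 6.29, 4.52, 4.50 and 3.60 in Salmonella libraries. Every sponge plus Salmonella library was above the silent range, and 3 of the 4 Salmonella libraries were not. The difference was 2.22 ± 0.39 (adjusted p = 0.0014), the largest of any member in this comparison. FBXO30 stood at 6.58, 6.54, 5.73 and 5.87 in sponge plus Salmonella libraries, against 6.11, 4.70, 4.54 and 3.89 in Salmonella libraries (1.37 ± 0.35, adjusted p = 0.0112), with Salmonella replicate 1 inside the sponge plus Salmonella range. FBXL5 stood at 7.32, 6.97, 6.40 and 6.79 in sponge plus Salmonella libraries, against 7.23, 8.21, 8.38 and 8.44 in Salmonella libraries (-1.19 ± 0.27, adjusted p = 0.0063), and Salmonella replicate 1 again lay in the sponge plus Salmonella range.

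The other F-box and KLHL differences were mostly under 1 log2 unit. KLHL22 stood at 8.59, 8.51, 8.89 and 8.89 in sponge plus Salmonella libraries, against 8.07, 7.97, 7.97 and 7.65 in Salmonella libraries, a clean separation (0.80 ± 0.16, adjusted p = 0.00255). FBXL13 (0.95 ± 0.28, adjusted p = 0.0244), KLHL29 (0.91 ± 0.27, adjusted p = 0.0234) and FBXO21 (0.54 ± 0.16, adjusted p = 0.0231) were higher as well. Each of these 3 calls ended without Salmonella replicate 4 or sponge plus Salmonella replicate 4, FBXL13 and KLHL29 also without Salmonella replicate 2, FBXO21 without Salmonella replicate 3 and FBXL13 without sponge plus Salmonella replicate 3 (adjusted p up to 0.0768). KLHL2 had a difference of 0.89 ± 0.34 and was not called (adjusted p = 0.0674). KLHL28, named after its values were seen, had a difference of 1.11 ± 0.38 (adjusted p = 0.0446) with overlapping groups. Other calls among these genes that ended without at least 4 single libraries of the 8 were those of KLHL28, FBXO32 (0.73 ± 0.24), KLHL15 (0.57 ± 0.18), FBXL20 (-0.72 ± 0.22), FBXO43 (-0.66 ± 0.20), KLHL6 (-0.76 ± 0.24), KLHL9 (-0.54 ± 0.17) and KLHL4 (-0.32 ± 0.11), of which KLHL15 and KLHL4 were named after their values were seen. The largest adjusted p each then reached lay between 0.0696 (FBXO43) and 0.137 (KLHL4). Without sponge plus Salmonella replicate 3 the difference of KLHL15 was 0.36.

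**Figure D4:**
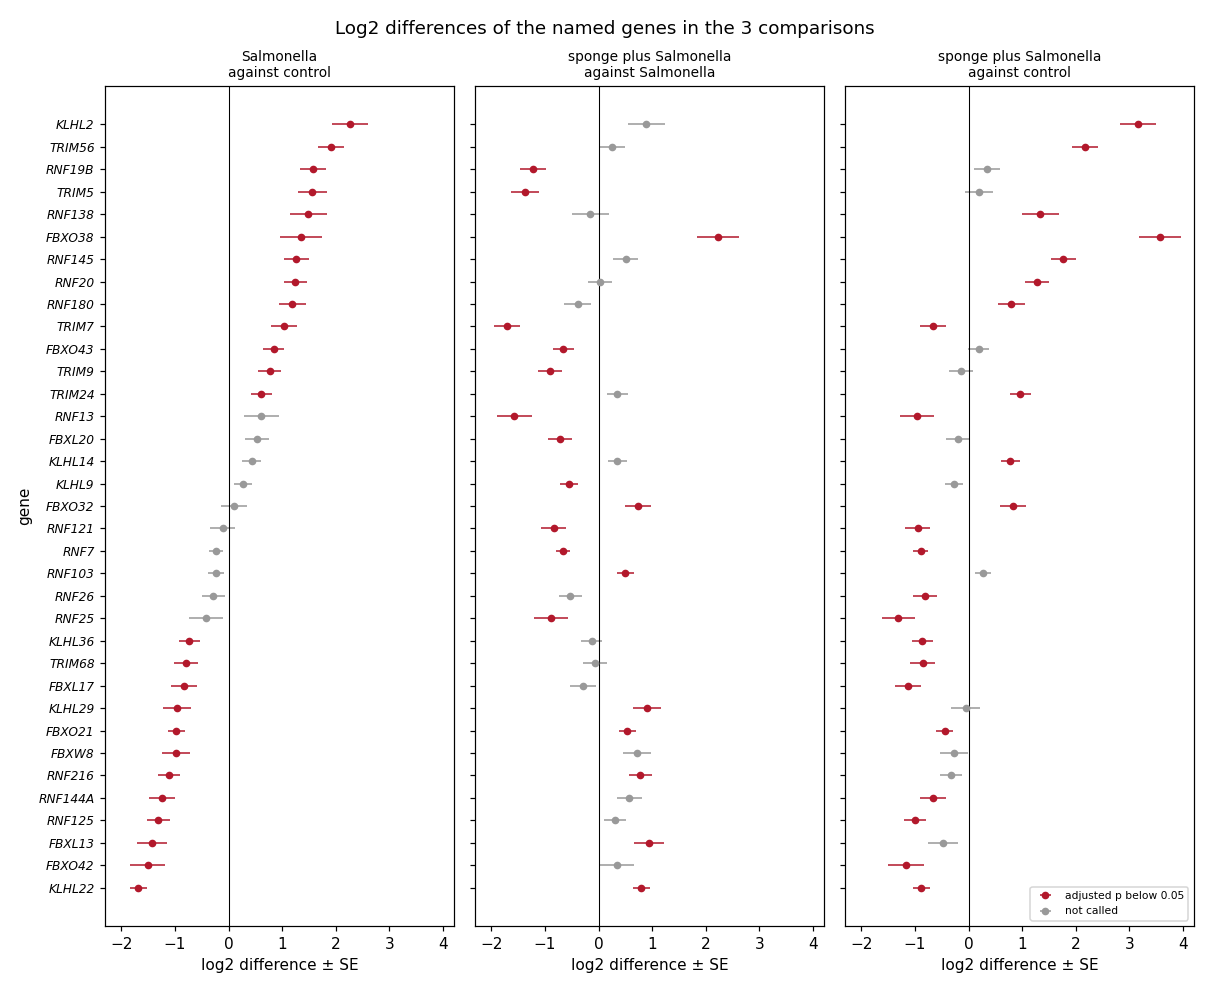
Log2 differences ± SE of the members that were among the largest rises or falls of at least 1 comparison (called, groups not overlapping, mean level of at least 5), in the same order in each panel, for Salmonella against control, sponge plus Salmonella against Salmonella, and sponge plus Salmonella against control (n = 4 per group). Red points passed an adjusted p of 0.05. KLHL2 (2.27) leads the first panel and FBXO38 the others (2.22 and 3.57).

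The third comparison sets sponge plus Salmonella directly against control. FBXO38, KLHL2, FBXO30, TRIM56, RNF145, RNF138, RNF20, KLHL28 and RNF2 were higher by more than 1 log2 unit, and RNF25, FBXO42, FBXL17 and RNF125 were lower by at least 1. By limma 17 members were higher and 27 lower, 14.5% and 23.1% of the members against 17.9% and 23.0% of all genes. Both directions together came to 37.6%, against 40.9% of all genes, and 42 members (35.9%) did not overlap, against 39.7%. Among genes with a mean above 4.97 in at least 1 of the 2 groups, the share called either way was 48.8% of 84 members, against 51.3% of all such genes. At an unadjusted p below 0.05 there were 58 members (49.6%), against 50.0% of all genes. The call of KLHL28 (1.17 ± 0.38, adjusted p = 0.0228) ended when control replicate 1 or 2, or sponge plus Salmonella replicate 2 or 3, was left out (adjusted p 0.052 to 0.0779). The 9 higher and 4 lower members past 1 log2 unit were 7.69% and 3.42%, against 9.02% and 5.68% of all genes. The median log2 difference of the members was -0.08, against -0.07 for all genes. The summed T cell marker level was 12.78 to 13.41 in sponge plus Salmonella and 13.53 to 14.15 in control libraries, that of NK cell markers 12.61 to 13.28 and 14.12 to 14.86, and that of monocyte markers 13.70 to 14.39 and 13.80 to 14.02. The monocyte sums overlapped, but 5 of 8 single monocyte markers were higher in sponge plus Salmonella than in control libraries (median log2 difference 1.0), among them CLEC7A (2.32) and CCR2 (1.89). The 5 NK cell markers, 5 of 12 T cell markers, 3 of 5 basophil and eosinophil markers, CD79A (-0.75) and CXCR5 (-0.71) were lower, and 2 of 12 T cell, 2 of 6 platelet and 2 of 5 red cell markers were higher. The part of these markers in the differences of the ligases was not tested.

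FBXO38 was 3.57 ± 0.39 higher (adjusted p = 6.25e-05) and FBXO30 2.41 ± 0.35 (adjusted p = 0.000179), both against control libraries below the silent genes, so neither size is certain. KLHL2 stood at 7.51, 8.36, 7.85 and 7.61 in sponge plus Salmonella libraries, against 4.0, 4.87, 5.40 and 4.41 in control libraries (3.16 ± 0.34, adjusted p = 6.25e-05). TRIM56 was 2.17 ± 0.24 higher (adjusted p = 6.3e-05), RNF145 1.77 ± 0.23 (adjusted p = 8.97e-05) and RNF20 1.27 ± 0.22 (adjusted p = 0.000551). RNF138 was 1.34 ± 0.35 higher (adjusted p = 0.00712) and RNF2 1.02 ± 0.18 (adjusted p = 0.000601), with a control mean of 4.36 for RNF2. TRIM24 (0.96 ± 0.20), FBXO32 (0.83 ± 0.24), KLHL14 (0.78 ± 0.18) and RNF180 (0.80 ± 0.25) were higher too, and the call of RNF180 (adjusted p = 0.0192) ended without control replicates 1 or 4 or sponge plus Salmonella replicate 2 (adjusted p up to 0.0595).

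TRIM5 and RNF19B, by contrast, had small differences from control when the sponge was present. That of TRIM5 was 0.20 ± 0.27 (adjusted p = 0.576, 95% interval -0.37 to 0.76) and that of RNF19B 0.35 ± 0.24 (adjusted p = 0.256, 95% interval -0.16 to 0.87). The intervals of TRIM38 (-0.14 to 0.64), FBXL5 (-0.92 to 0.24) and TRIM9 (-0.61 to 0.33) also held 0, which does not show that these genes were at the control level. TRIM7 was lower than control (-0.66 ± 0.24, adjusted p = 0.0415), a call that ended without any 1 control or without sponge plus Salmonella replicates 2, 3 or 4 (adjusted p 0.0535 to 0.106).

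Among the lower members, RNF25, which ubiquitinates ribosomal proteins on stalled ribosomes in human cells, stood at 5.41, 4.88, 4.84 and 5.32 in sponge plus Salmonella libraries, against 6.78, 6.34, 6.06 and 6.51 in control libraries (-1.31 ± 0.31, adjusted p = 0.00445). FBXO42 (-1.17 ± 0.33, adjusted p = 0.0117), FBXL17 (-1.13 ± 0.24, adjusted p = 0.00219) and RNF125 (-1.0 ± 0.21, adjusted p = 0.00216) were lower. KLHL22 was still lower than control (-0.88 ± 0.16, adjusted p = 0.00062), as were RNF7 (-0.90 ± 0.13, adjusted p = 0.000228) and RNF121 (-0.95 ± 0.24, adjusted p = 0.00596). TRIM68 (-0.86 ± 0.23), KLHL36 (-0.86 ± 0.20) and RNF26 (-0.81 ± 0.22), the last a membrane ligase that acts on STING in human cells, were lower as well. RNF13 was lower by 0.96 ± 0.32 (log2 difference -0.96, adjusted p = 0.028), a call that ended without control replicates 2 or 4 or sponge plus Salmonella replicates 2, 3 or 4 (adjusted p up to 0.089). The other calls in this direction were under 1 log2 unit.

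Of the 117 members, 71 were called in at least 1 of the 3 comparisons and 46 in none of them. The matching share of all genes was not computed, so these counts show nothing particular to the members. In the order given above, the single comparisons called 33.6%, 25.0% and 40.9% of all genes. Among the 46 were KLHL12, RNF8, RNF168, FBXW11 and TRIM34, and TRIM58, which acts in maturing red cells in mouse and whose difference in Salmonella against control was 0.74 ± 0.30 (adjusted p = 0.0686).

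The rest of the ubiquitin pathway was read from lists that do not use the name rule, by their counts. Of 9 genes for ubiquitin and NEDD8 activation, 5 were measured. UBA6, an E1 enzyme, was higher in Salmonella than in control libraries (1.62 ± 0.53, adjusted p = 0.0271), and UBE2M, the NEDD8 E2 enzyme that activates cullins, was lower (-0.38 ± 0.12, adjusted p = 0.0251). Both calls ended without 4 or more single libraries (adjusted p up to 0.093). Of 17 cullin scaffolds and adaptors 9 were measured, and CAND2 (-1.11 ± 0.22, adjusted p = 0.00164) and CUL3 (-0.46 ± 0.16, adjusted p = 0.0358) were lower with Salmonella. CUL3, the scaffold of KLHL receptors, lost its call without any 1 of 5 libraries (adjusted p up to 0.0972) and had means of 4.39 in Salmonella and 4.85 in control libraries, both in the silent range. Against Salmonella alone, 4 of the 9 were higher with the sponge, namely GLMN, a regulator of cullin RING ligases (0.91 ± 0.23, adjusted p = 0.0102), CUL3 (0.64 ± 0.16, adjusted p = 0.0104), CUL4B (0.83 ± 0.25, adjusted p = 0.0264) and CUL7 (0.61 ± 0.20, adjusted p = 0.0375). Of all genes, 11.9% were higher in that comparison. The list's median there was 0.50, against -0.04 for all genes, and 3 of the 9 had a mean over the 12 libraries at or below 4.97. CUL7 had a mean of 4.49 in Salmonella libraries, in the silent range like that of CUL3. The calls of CUL4B and CUL7 ended without 3 and 5 single libraries (adjusted p up to 0.0712 and 0.115).

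Of 9 COP9 signalosome genes, whose complex removes NEDD8 from cullins, 4 were measured. COPS7A was higher in Salmonella than in control libraries (0.60 ± 0.13, adjusted p = 0.00283) and lower in sponge plus Salmonella than in Salmonella libraries (-0.69 ± 0.13, adjusted p = 0.00219). COPS4 was lower in Salmonella than in control libraries (-0.58, adjusted p = 0.023), a call that ended without any 1 of 3 libraries (adjusted p up to 0.0818). In sponge plus Salmonella against control, COPS4 (-0.88) and COPS6 (-0.84) were lower and COPS8 (1.38) was higher. Of 19 other F-box, BTB and Kelch receptors 6 were measured. SPOPL, a cullin 3 receptor, was higher with Salmonella than in control (1.62 ± 0.37, adjusted p = 0.00354) and higher again with the sponge than with Salmonella alone (1.44 ± 0.37, adjusted p = 0.0117), with a control mean of 4.72, in the silent range. KLHDC3 was lower with Salmonella (-0.85 ± 0.17, adjusted p = 0.00175). With the sponge, KLHDC2 (1.19 ± 0.21, adjusted p = 0.0013) and KBTBD7 (1.61 ± 0.31, adjusted p = 0.00224) were higher than with Salmonella alone.

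Of 65 E3 ligases outside the name rule 25 were measured, and 8 were higher and 3 lower in Salmonella than in control libraries, beside 15.7% higher and 17.9% lower of all genes, with a median of 0.26 against -0.02 for all genes. HERC5, which attaches the ubiquitin-like protein ISG15, rose by 3.55 ± 0.38 (adjusted p = 1.08e-05), DTX3L, the partner of PARP9, by 2.50 ± 0.37 (adjusted p = 0.000172), and CBL, which marks activated receptors, by 1.86 ± 0.35 (adjusted p = 0.00112). CBLB, a brake on T cell activation, was lower (-1.34 ± 0.22, adjusted p = 0.000335). With the sponge, HERC5 was lower than with Salmonella alone (-2.10 ± 0.38, adjusted p = 0.00167) and VHL, the receptor for hypoxia-inducible factor, was higher (2.07 ± 0.46, adjusted p = 0.00529). HERC5 and DTX3L are also on the list of 30 interferon-stimulated genes, of which 15 were measured, 14 were higher in Salmonella than in control libraries (median 3.55) and 12 were lower in sponge plus Salmonella than in Salmonella libraries (median -1.76). Of the innate TRIM genes 3 of 4 measured were higher with Salmonella (median 1.19), where 15.7% of all genes were higher. With the sponge TRIM5 and TRIM38 of the 4 were lower than with Salmonella alone (median -0.22), where 13.2% of all genes were lower, and the call of TRIM38 ended without any 1 of 6 libraries.

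The genes whose levels followed the 2 members with the largest differences in Salmonella against control were named from Pearson correlations over the 12 libraries, given as a description of libraries that share 3 groups. For KLHL2 these were NEDD9 (0.990), SLK (0.986), TMEM167A (0.986), PIK3AP1 (0.983) and SKAP2 (0.982). For TRIM56 they were RGMA (0.976), SKAP2 (0.976), PIK3AP1 (0.973), CIR1 (0.972) and DAPP1 (0.971). All of them have their highest mean in sponge plus Salmonella and their lowest in control libraries, as KLHL2 and TRIM56 do. Choosing genes by this correlation favours such a shared order, so it is no separate result. The step from Salmonella to sponge plus Salmonella was called for neither KLHL2 nor TRIM56.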

How the data were processed

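Per the labels' protocols, RNA was extracted with a PAXgene kit and made into Illumina TruSeq libraries, and the design text gives single reads of 50 bases. Bowtie, R 3.4.2 and the build Sscrofa11.1 appear in the submitters' processing notes. How reads were counted and normalized and how genes were filtered is not stated in those sources. The authors deposited log2 values, 1 for each of 7480 symbols and 12 libraries, and the base was taken as 2 from the range. Depth is unknown and no counting error can be given.

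Tests used limma 3.58.1 (R 4.3.3) on the unchanged values, with 1 model of 3 group means over the 12 libraries and moderated variances that follow the mean level. Adjusted p-values are Benjamini-Hochberg over all 7480 genes, and genes below 0.05 were called. Errors are SE of the log2 difference, or SD over n = 4 libraries. The alternatives were a replicate block, median centring, quantile normalization, a filter on a mean of at least 5, no variance trend, the 2 groups only, and leaving out each library. A pseudocount was planned for linear values and was not needed. Summed marker levels are the log2 of the summed antilog values. The code was tested on simulated data with 200 changed genes.

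Named in each comparison were the 10 largest called rises and falls without overlap and with a mean of at least 5, and 17 measured members of a list of 36 chosen by role. The members and lists were chosen with earlier results of these data known. Gene positions are from RefSeq for Sscrofa11.1. The count of columns not used was 0. 1 item of the marker lists is not reported here, and no sum or count over its list is given.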

Additional observations from a re-analysis of the deposited data

Results flagged for a closer look

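In 228 groups of 4 libraries (76 members in 3 groups), 8 groups (3.51%) held 1 library farther from the others than Dixon's 95% limit allows, where chance flags about 1 group in 20. In the sponge plus Salmonella group, TRIM5 stood at 7.58 in replicate 2 and at 6.76 to 6.81 in the others. In the Salmonella group, RNF20 stood at 8.82 in replicate 4 and at 9.23 to 9.28 in the others, RNF121 at 5.83 in replicate 1 and 6.04 to 6.08, FBXO48 at 4.94 in replicate 2 and 4.30 to 4.37, and KLHL17 at 4.89 in replicate 4 and 5.17 to 5.21. In the control group, TRIM27 stood at 6.41 in replicate 4 and at 6.13 to 6.15 in the others, RNF180 at 5.06 in replicate 2 and 4.38 to 4.47, and KLHL33 at 5.51 in replicate 3 and 4.84 to 4.93.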

How the results depend on the processing

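Counts of members higher and lower in Salmonella against control ranged from 16 to 22 and 17 to 20 when 1 library was left out, around 22 and 19. For sponge plus Salmonella against Salmonella these ranges were 7 to 13 and 8 to 19, around 14 and 20, and for sponge plus Salmonella against control 14 to 20 and 18 to 27, around 17 and 27. The fit of the 2 groups only gave 13 lower members in sponge plus Salmonella against Salmonella. The filter on a mean of at least 5 left 75 members and gave 11 higher members and a median of -0.27 in sponge plus Salmonella against control, where fewer genes were tested. Of 3357 repeats of single members, 259 planned and 1 added later ended a call, 58 gained one and 0 of the called differences turned direction. Centring libraries to the same median gave 35 lower and 15 higher members in sponge plus Salmonella against control, in place of 27 and 17.

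The replicate numbers are shared by the groups, but same-numbered libraries did not deviate together (correlations from -0.36 to 0.38), and at most 2 of 8 libraries correlated best with their own number, so the numbers were not taken as pairs. With the replicate block 23 members were higher and 19 lower in Salmonella against control, 11 and 15 in sponge plus Salmonella against Salmonella, and 19 and 19 in sponge plus Salmonella against control. The pseudocount was not run, because the values used were log values.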

Other observations

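Some members are neighbours in the pig genome (Sscrofa11.1). RNF125 (chromosome 6, 115857697 to 115905550) and RNF138 (115927021 to 115975754) are 21470 bases apart with no other coding gene starting between them. In Salmonella against control RNF125 fell (-1.31) and RNF138 rose (1.49). FBXO21 and FBXW8 on chromosome 14 are 90160 bases apart with 1 coding gene starting between them, and both fell in that comparison (-0.98 for each).

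TRIM58 had the widest spread of the members in the sponge plus Salmonella group (SD 0.75), at 8.45, 9.73, 10.2 and 9.23 log2 units. The summed level of 5 red cell markers in the same libraries was 13.89, 15.18, 14.45 and 15.11. This sum is close to the level of HBA2 alone (mean 14.53 in that group, with AHSP next at 10.32) and says little about the others.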
